A study of Mus musculus with 6 samples.

Results

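The promoter regions of the ribosomal protein genes were examined in an ATAC-seq table of NIH/3T3, a fibroblast line that was established from mouse embryos. A region was taken where the table assigned it to a protein-coding gene with an Rpl or Rps name of ribosomal protein form, kinases of the Rps6ka and Rps6kb families excluded, and placed its centre within 1000 bp of the transcription start site (TSS). This gave 64 regions of 64 genes out of 63430 regions in all, of which 10032 were promoter regions of protein-coding genes by the same distance (9954 after the filter on low signal). The large ribosomal subunit contributed 41 regions and the small subunit 23. Cas13d, an RNA-cutting CRISPR enzyme, had been knocked into the line and was shared by both groups. The knockdown cells had been transfected with a guide RNA against the Actg1 mRNA (cytoplasmic gamma-actin, titles beginning sg3-KD), and the control cells with a guide RNA against GFP (titles beginning GFP-KD), with 3 libraries of each. The study asks about transcriptional adaptation, in which loss of an mRNA goes with more transcription of related genes. Each library came from 25000 cells transposed for 30 min at 37 °C. The time after transfection and whether the knock-in line is a single clone are not stated. The labels call the libraries biological replicates without saying that they came from separate cultures, so p-values measure the spread between these libraries, which may be technical.

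Ribosomal proteins are the protein part of the cytosolic ribosome. The small subunit reads the mRNA, and the large subunit joins amino acids and carries the exit tunnel. Their genes are scattered over the chromosomes and are transcribed strongly in growing cells, often from a start that lies in a run of pyrimidines, the 5′ terminal oligopyrimidine (TOP) tract. ATAC-seq counts insertions of the Tn5 transposase and measures how open the DNA is, not how much mRNA is made.

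RefSeq promoter sequences (GRCm38.p6, the assembly that mm10 names) were matched for 46 of the 64 genes, 30 of the large and 16 of the small subunit. The stretches below run from 90 bases before to 30 bases after the RefSeq start and show what surrounds the start. Among called promoters with an entry in the sequence table, they are the 3 largest rises and 3 largest falls of the large subunit and the 3 largest falls of the small subunit, with runs of at least 8 C and T in capitals.
Rpl23, chr11:97782410-97782529, minus strand: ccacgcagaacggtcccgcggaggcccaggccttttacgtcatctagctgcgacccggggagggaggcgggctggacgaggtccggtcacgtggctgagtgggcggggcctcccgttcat
Rpl9, chr5:65391402-65391521, minus strand: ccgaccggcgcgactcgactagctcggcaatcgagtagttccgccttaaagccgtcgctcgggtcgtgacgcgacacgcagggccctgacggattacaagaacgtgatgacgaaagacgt
Rpl7l1, chr17:46782627-46782746, minus strand: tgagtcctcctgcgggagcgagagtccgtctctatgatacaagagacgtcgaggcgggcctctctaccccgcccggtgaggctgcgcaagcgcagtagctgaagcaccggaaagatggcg
Rpl28, chr7:4792875-4792994, plus strand: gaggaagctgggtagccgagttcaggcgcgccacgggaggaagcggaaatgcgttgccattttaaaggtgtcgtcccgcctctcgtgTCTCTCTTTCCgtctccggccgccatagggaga
Rpl22l1, chr3:28805418-28805537, plus strand: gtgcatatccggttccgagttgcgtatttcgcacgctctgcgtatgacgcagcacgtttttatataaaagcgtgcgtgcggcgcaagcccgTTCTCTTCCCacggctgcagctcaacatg
Rpl36a, chrX:134585564-134585683, plus strand: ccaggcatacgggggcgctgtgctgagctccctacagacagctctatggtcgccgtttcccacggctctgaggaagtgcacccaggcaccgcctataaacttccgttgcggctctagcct
Rps13, chr7:116334161-116334280, minus strand: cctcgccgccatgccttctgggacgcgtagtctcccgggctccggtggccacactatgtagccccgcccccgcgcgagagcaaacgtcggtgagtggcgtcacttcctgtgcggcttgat
Rps6, chr4:86857338-86857457, minus strand: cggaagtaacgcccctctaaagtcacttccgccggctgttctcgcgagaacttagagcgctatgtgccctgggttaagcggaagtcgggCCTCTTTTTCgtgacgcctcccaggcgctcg
Rps21, chr2:180257289-180257408, plus strand: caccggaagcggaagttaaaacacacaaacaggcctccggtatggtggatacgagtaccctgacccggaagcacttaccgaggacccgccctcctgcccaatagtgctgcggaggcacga

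Rpl23, Rpl9 and Rpl7l1 had more accessible promoters with the Actg1 guide, and the other 6 had less accessible ones. Within the stretches shown, a capital run is present in Rpl28, Rpl22l1 and Rps6. Up to 50 bases after the start, beyond the printed end, such a run was also found in Rpl9, which rose, and in Rpl36a and Rps21. The RefSeq start lay 91, 72 and 45 bp from the start in the deposited annotation at Rpl28, Rpl22l1 and Rps6. At the others shown it lay at most 16 bp away. Rpl22l1 also carries TATAAA, on either strand, 28 and 32 bases before the RefSeq start, and Rps21 carries CCGGAAG, the core bound by ETS factors, 26 and 88 bases before it. Rpl8 and Rps29, which also rose, have no entry in the sequence table.

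Over the 46 sequences, from 250 bases before to 50 bases after the start, a run of 8 C and T on the sense strand within 50 bases of the start was found in 36, or 78.3%, against 30.4% of 7128 coding promoters. That run length was chosen after seeing that RefSeq starts often lie some bases away from the tract. A C followed by 4 pyrimidines exactly at the start was found in 7, or 15.2%, against 2.16%. On either strand, CCGGAAG was found in 17 (37.0%, against 19.4%), ATGGC, the core of the YY1 site, in 25 (54.3%, against 38.3%) and CTCGCGAGA in 4 (8.70%, against 1.73%). GGGCGG, the SP1 core, was found in 29 (63.0%, against 69.0%), the E-box CACGTG in 5 (10.9%, against 10.6%) and TATAAA in 4 (8.70%, against 6.57%). The motifs were searched without regard to overlap with each other, and a match is a run of letters, not a bound site. The windows of ribosomal protein genes had a median GC content of 57.5%, against 61.7% for coding promoters.

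The deposited values are read counts per region that had been normalized between libraries and rounded, called signal here. Their sums ran from 7673745 to 7831438 per library, and the uneven use of small whole numbers gave an estimate of 5675571 to 9525330 reads in regions. The 64 regions together held 13818 to 23441 of those reads, with at least 88 reads in every region and library. Between GFP guide replicates 1 and 2 the reads varied no more than sampling noise (chi-square per region 1.005 over 59697 regions, p = 0.201). These 2 libraries were averaged and counted as 1 sample, so the test sets 3 Actg1 guide samples against 2 GFP guide samples. The other pairs of libraries within a group gave 1.03 to 1.12. Promoter regions were present for 8 of 10 fibroblast markers, with Pdgfra and Thy1 lacking one, and for 0 of 4 immune and 0 of 3 endothelial markers, 1 of 4 epithelial (Krt8) and 1 of 3 neural markers (Tubb3). Among the regions used here none was assigned to Actg1 itself, and ATAC-seq does not measure its mRNA, so the knockdown was not checked here. The summed signal of the fibroblast markers was 3461 to 3586 in Actg1 guide libraries and 3647 to 3735 in GFP guide libraries. These sums did not overlap between the groups, and their part in the results was not tested. In bulk samples fewer cells of a type and less open DNA per cell cannot be told apart.

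All 64 regions passed the filter on low signal (at least 10 in at least 3 of 6 libraries), and each contained its TSS. Their accessibility lay in the middle of that of coding promoters. Signal per kb of region had a median of 332 (quartiles 239 and 407), against 310 (quartiles 201 and 460.1) over coding promoters, with 348 in the large and 331 in the small subunit. Region width had a median of 834.5 bp, against 850 bp. The member centred farthest from its TSS was Rpl7, at 512 bp. The nearest region beyond the 1000 bp limit was that of Rpl3, at 1047 bp, with a signal of 42, 39 and 52 with the Actg1 guide, against 53, 63 and 53 with the GFP guide.

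The comparison asked whether accessibility at these promoters differed between cells with the Actg1 guide and cells with the GFP guide. Of the 64 regions, 7 rose and 11 fell with the Actg1 guide, together 18 or 28.1%, and 46 did not pass (limma, adjusted p under 0.05 over 61327 regions). Over all tested regions 41.3% were called (20.6% higher and 20.7% lower), and over promoter regions of protein-coding genes 31.2%, with 12.9% higher and 18.3% lower. Those shares of coding promoters, 1283 higher and 1822 lower, became 1618 and 1469 after cyclic loess scaling, 1525 and 1502 after scaling to the median ratio of coding promoters, and 1782 and 1807 with limma-voom on estimated reads. The members' shares of 10.9% higher and 17.2% lower were thus near the background, also that of the 7650 coding promoters in the members' range of signal, of which 32% were called. The median log2 fold change was -0.01 over the 64 regions and -0.02 over coding promoters. The median of the 64 turned to 0.02 after cyclic loess scaling, which put the coding promoters at 0.0016, to 0.01 after median ratio scaling, and to 0.0014 with limma-voom.

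The changes were small. The largest fall was 1.29-fold and the largest rise 1.25-fold, while 11.1% of coding promoters had a log2 fold change larger in size than any of the 64, and 0.995% changed by at least 2-fold in either direction, called or not. Changes of at least 1.25-fold were measured in 3 of the 64 regions (4.69%), against 14.7% of coding promoters. The median size of the log2 fold change was alike, 0.141 in the 64 regions and 0.139 over coding promoters. SEs of the 64 regions ran from 0.0499 to 0.126 on the log2 scale, and the smallest called difference was 0.14 (Rpl37). Coding promoters include weaker regions, with SEs of up to 0.594. The 6 libraries fell into groups that did not overlap in 22 regions (34.4%, against 42.8% of coding promoters), with the Actg1 guide above in 5 and below in 17 (7.81% and 26.6%, against 17.8% and 25% of coding promoters).

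**Figure D1:**
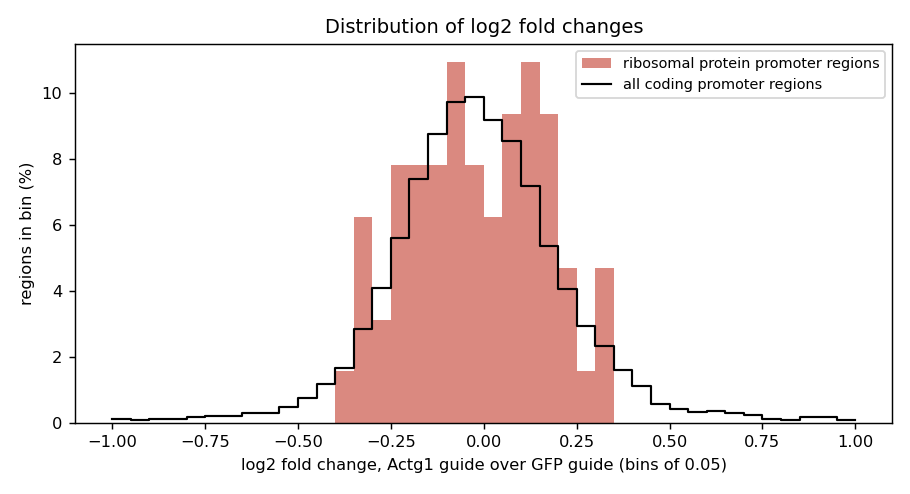
The percentage of regions (vertical axis) in each bin of log2 fold change, Actg1 guide over GFP guide (horizontal axis, bins of 0.05), is shown for the 64 ribosomal protein promoter regions (bars) and for coding promoter regions (line); 99 coding regions lie beyond the plotted range. The bars span -0.36 to 0.32 and centre near 0, within the broader distribution of the coding promoters.

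**Figure D2:**
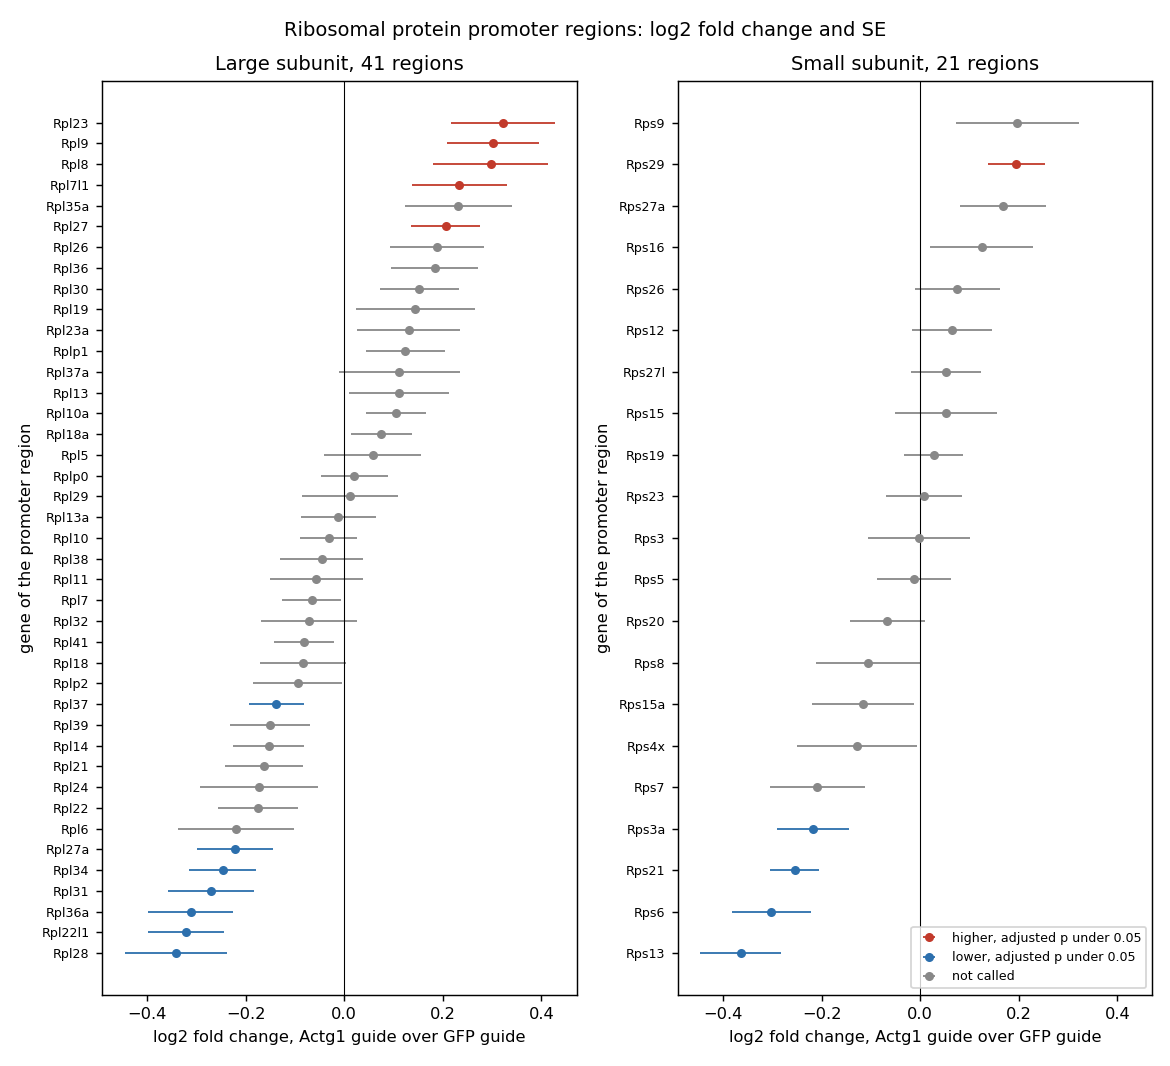
Log2 fold change of 62 of the 64 promoter regions, Actg1 guide over GFP guide (points; bars are the SE from limma), with large subunit genes on the left and small subunit genes on the right. Red points rose (6), blue points fell (11) and grey points did not pass (45); rises and falls occur in both subunits.

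Among small subunit genes, 2 promoters rose and 4 fell of 23. Rps29, a zinc-binding protein of the head of the subunit, had a signal of 644, 606 and 615 in the Actg1 guide libraries, against 530, 533 and 554 in the GFP guide libraries (log2 fold change 0.20 with an SE of 0.0578, adjusted p = 0.00574 by limma). At Rps29 every Actg1 guide library lay above every GFP guide library.

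The largest fall of all 64 was at Rps13, an rRNA-binding protein of the small subunit (chr7:116333891-116334680), which had a signal of 226, 237 and 250 in the Actg1 guide libraries, against 302, 302 and 310 in the GFP guide libraries, 1.29-fold lower (log2 fold change -0.36 with an SE of 0.0829, adjusted p = 0.000421 by limma). Rps6, the ribosomal protein phosphorylated by S6 kinases downstream of mTOR, had a signal of 255, 272 and 248 in the Actg1 guide libraries, against 299, 341 and 317 in the GFP guide libraries (log2 fold change -0.30 with an SE of 0.0803, adjusted p = 0.00221 by limma). Rps21, the most accessible member, had a signal of 776, 754 and 751 in the Actg1 guide libraries, against 866, 904 and 930 in the GFP guide libraries (log2 fold change -0.25 with an SE of 0.0499, adjusted p = 6.03e-05 by limma). All 3 had Actg1 guide libraries entirely below the GFP guide libraries. Rps3a had a signal of 349, 335 and 315 in the Actg1 guide libraries, against 401, 392 and 378 in the GFP guide libraries (log2 fold change -0.22 with an SE of 0.0731, adjusted p = 0.0145 by limma), also without overlap. The largest difference that did not pass in the small subunit was a lower value at Rps7, with 203, 193 and 171 in the Actg1 guide libraries, against 221, 209 and 221 in the GFP guide libraries (log2 fold change -0.21 with an SE of 0.0958, adjusted p = 0.0769 by limma), with no overlap. The difference of smallest size among all 64 was at Rps3, a protein of the mRNA entry site, with 166, 165 and 195 in the Actg1 guide libraries, against 181, 193 and 164 in the GFP guide libraries (log2 fold change -0.0026 with an SE of 0.103, adjusted p = 0.987 by limma, positive after cyclic loess and median ratio scaling). The groups overlapped there.

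Among large subunit genes, 5 promoters rose and 7 fell of 41. Rpl23, a protein that binds Mdm2 when ribosome assembly is disturbed (chr11:97781945-97782996), had a signal of 167, 199 and 169 in the Actg1 guide libraries, against 146, 142 and 140 in the GFP guide libraries, 1.25-fold higher (log2 fold change 0.32 with an SE of 0.105, adjusted p = 0.0122 by limma). Rpl9 had a signal of 231, 220 and 238 in the Actg1 guide libraries, against 202, 203 and 171 in the GFP guide libraries (log2 fold change 0.30 with an SE of 0.0939, adjusted p = 0.00856 by limma). Both groups of libraries were apart at these promoters. Rpl8, which lies next to the peptidyl transferase centre, had a signal of 157, 130 and 164 in the Actg1 guide libraries, against 133, 131 and 112 in the GFP guide libraries (log2 fold change 0.30 with an SE of 0.117, adjusted p = 0.0384 by limma). Rpl27 had a signal of 404, 416 and 394 in the Actg1 guide libraries, against 397, 322 and 342 in the GFP guide libraries (log2 fold change 0.21 with an SE of 0.0697, adjusted p = 0.0155 by limma). Rpl7l1, a relative of Rpl7 that acts in assembly of the large subunit, had a signal of 269, 310 and 233 in the Actg1 guide libraries, against 249, 253 and 208 in the GFP guide libraries (log2 fold change 0.23 with an SE of 0.096, adjusted p = 0.0469 by limma). In each of these last 3, at least 1 Actg1 guide library lay within the range of the GFP guide libraries.

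Rpl28, present in the ribosomes of mammals and not of budding yeast, showed the largest fall of the large subunit (chr7:4792628-4793251) and had a signal of 151, 138 and 150 in the Actg1 guide libraries, against 210, 170 and 181 in the GFP guide libraries (log2 fold change -0.34 with an SE of 0.103, adjusted p = 0.00691 by limma). Rpl22l1, the paralogue of Rpl22, had a signal of 326, 295 and 288 in the Actg1 guide libraries, against 350, 362 and 402 in the GFP guide libraries (log2 fold change -0.32 with an SE of 0.0777, adjusted p = 0.000841 by limma). Rpl36a, on the X chromosome, had a signal of 236, 224 and 273 in the Actg1 guide libraries, against 333, 283 and 297 in the GFP guide libraries (log2 fold change -0.31 with an SE of 0.0863, adjusted p = 0.00322 by limma). In all 3 the Actg1 guide libraries were the lower ones without overlap. Rpl31, near the exit of the peptide tunnel, had a signal of 254, 220 and 245 in the Actg1 guide libraries, against 264, 275 and 309 in the GFP guide libraries (log2 fold change -0.27 with an SE of 0.0871, adjusted p = 0.0112 by limma). Rpl34 had a signal of 393, 418 and 372 in the Actg1 guide libraries, against 451, 477 and 471 in the GFP guide libraries (log2 fold change -0.25 with an SE of 0.068, adjusted p = 0.0031 by limma). Rpl27a, conserved in all kingdoms, had a signal of 402, 362 and 312 in the Actg1 guide libraries, against 428, 415 and 411 in the GFP guide libraries (log2 fold change -0.22 with an SE of 0.0779, adjusted p = 0.0197 by limma). Again every Actg1 guide library was below every GFP guide library. Rpl37, the second most accessible member by signal per region, fell least, with 596, 589 and 586 in the Actg1 guide libraries, against 676, 617 and 653 in the GFP guide libraries (log2 fold change -0.14 with an SE of 0.0559, adjusted p = 0.0434 by limma). It too had no overlap. Of the 46 promoters that did not pass, the extremes were both in the large subunit: Rpl35a had a signal of 193, 187 and 148 in the Actg1 guide libraries, against 146, 155 and 147 in the GFP guide libraries (log2 fold change 0.23 with an SE of 0.109, adjusted p = 0.0851 by limma), and Rpl6 had a signal of 107, 127 and 119 in the Actg1 guide libraries, against 138, 126 and 142 in the GFP guide libraries (log2 fold change -0.22 with an SE of 0.118, adjusted p = 0.132 by limma). Both overlapped between groups.

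**Figure D3:**
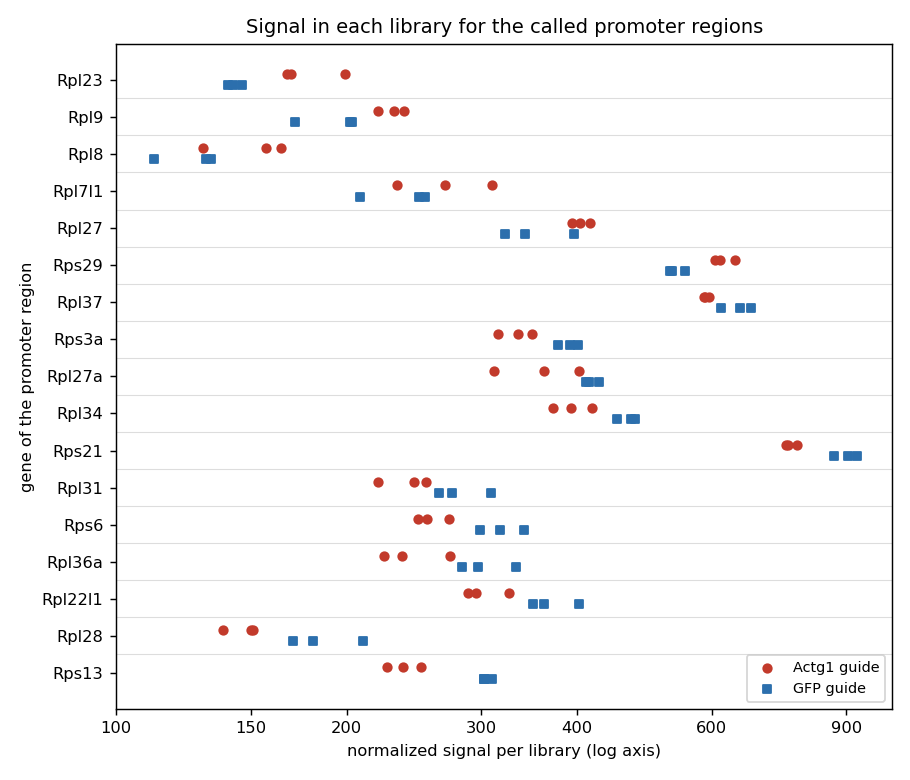
Normalized signal in each library (horizontal log axis) for 17 of the 18 called promoter regions, ordered by log2 fold change from Rps13 at the bottom to Rpl23 at the top, with Actg1 guide libraries as circles and GFP guide libraries as squares. The groups overlap at Rpl8, Rpl7l1 and Rpl27 and are apart at the other 14 shown.

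The calls differed with the libraries left out. Some members were called whichever library other than GFP guide replicate 3 was left out. They included Rps13, Rps6, Rps21 and Rps29 of the small subunit and Rpl22l1, Rpl36a, Rpl34 and Rpl9 of the large subunit. The share of coding promoters that held in this way was not counted. Without GFP guide replicate 3, which leaves 1 GFP guide sample, 14 calls ended (limma adjusted p = 0.0542 to 0.669), and 6.25% of the 64 regions and 8.87% of coding promoters were called. The spread in that fit comes from the Actg1 guide libraries alone, and the lone GFP guide sample is assumed to vary like them, so these ended calls do not measure how stable a promoter's difference is. Of these 14, 9 kept at least 80% of their log2 fold change. The other 5 kept less: Rpl22l1 72.8%, Rpl31 63.5%, Rpl8 60.4%, Rpl9 59.7% and Rpl7l1 42.2%. Calls also ended without Actg1 guide replicate 1 (Rpl37, Rpl7l1, Rpl8), replicate 2 (Rpl23, Rpl27a, Rpl31, Rpl37, Rpl7l1) or replicate 3 (Rpl27a, Rpl37, Rpl8, Rps3a), and without GFP guide replicate 1 (Rpl28, Rpl37, Rpl7l1) or replicate 2 (Rpl27). Without the mean-variance trend of limma, Rps13 was the 1 member called (9 at an unadjusted p under 0.05), and 7.16% of coding promoters were.

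The large and small subunits had shares of called promoters and medians close to each other. Of large subunit regions 29.3% were called and of small subunit regions 26.1%, and the median log2 fold changes were -0.03 and -0.0026. The summed signal of the 41 large subunit regions was 12095, 11924 and 11684 in the Actg1 guide libraries, against 12259, 12111 and 12062 in the GFP guide libraries. The 23 small subunit regions summed to 6803, 6757 and 6747 with the Actg1 guide, against 6878, 7134 and 6840 with the GFP guide. For the small subunit the Actg1 guide libraries were the 3 lowest, by a log2 difference of -0.03 between means. For the large subunit (-0.03) the groups overlapped. All coding promoters together summed to 3230225, 3150373 and 3164042 with the Actg1 guide, against 3234261, 3253907 and 3240829 with the GFP guide. There too the Actg1 guide libraries were the 3 lowest. The ratio of large to small subunit signal was 1.76 ± 0.0238 with the Actg1 guide (SD, n = 3) and 1.75 ± 0.0166 with the GFP guide (SD, n = 2 after averaging), a difference smaller than either spread. As a share of all coding promoter signal, the 64 regions held 0.587 ± 0.00546% with the Actg1 guide (SD, n = 3) and 0.587 ± 0.00589% with the GFP guide (SD, n = 2 after averaging). No test was run over these sums, since the members were chosen as a set.

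**Figure D4:**
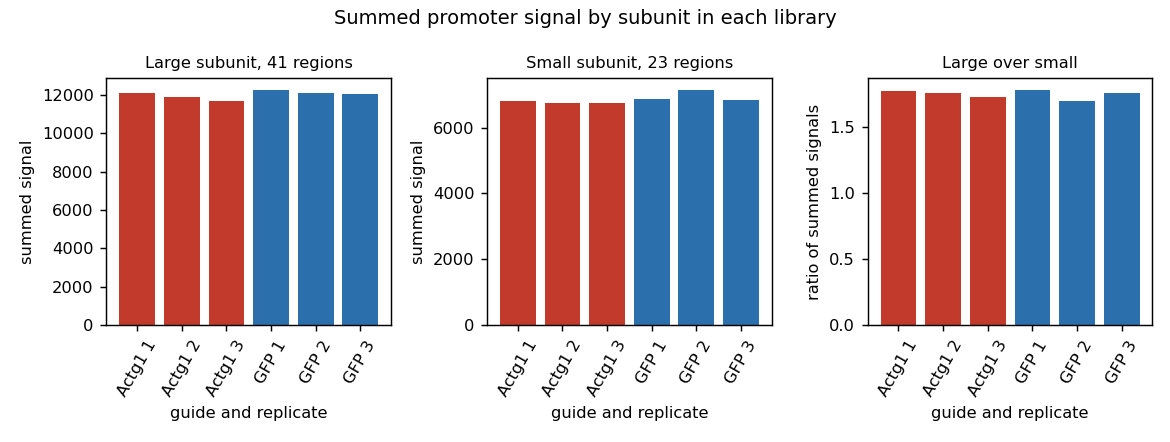
Summed normalized signal of the 41 large subunit regions and of the 23 small subunit regions, and the ratio of the sums, in each library (bars from 0, Actg1 guide in red and GFP guide in blue). The ratio lies between 1.70 and 1.78 in all 6 libraries.

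Between genes, accessibility per kb ran over a wide range. Rps21, of the small subunit, stood highest at 984 per kb, above 98.4% of coding promoters. Rpl41, which encodes a very short protein of the large subunit, followed at 869 per kb, and Rpl37 and Rps19, whose human counterpart is mutated in Diamond-Blackfan anaemia, had 748 and 669 per kb. The lowest were Rpl37a at 127 per kb and Rpl6 at 139 per kb, the last above 12.5% of coding promoters. By signal per region, not corrected for width, the highest were Rps21, Rpl37 and Rps19 and among the lowest were Rpl37a and Rps9. Rps19 had a signal of 650, 575 and 635 in the Actg1 guide libraries, against 591, 654 and 593 in the GFP guide libraries (log2 fold change 0.03 with an SE of 0.0591, adjusted p = 0.748 by limma). Its groups overlapped. Rpl37a had a signal of 110, 139 and 118 in the Actg1 guide libraries, against 111, 126 and 107 in the GFP guide libraries (log2 fold change 0.11 with an SE of 0.123, adjusted p = 0.497 by limma), and Rps9, conserved in all kingdoms, had a signal of 120, 155 and 116 in the Actg1 guide libraries, against 124, 113 and 107 in the GFP guide libraries (log2 fold change 0.20 with an SE of 0.125, adjusted p = 0.211 by limma). In these weak regions the groups overlapped as well. Across the 64 regions the log2 signal and the log2 fold change correlated at -0.15 (Pearson; the points share the same libraries), against -0.04 over coding promoters.

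By role within the ribosome, the acidic stalk that recruits translation factors had 0 of 3 promoters called. Rplp0, its anchor, had a signal of 425, 402 and 403 in the Actg1 guide libraries, against 412, 383 and 411 in the GFP guide libraries (log2 fold change 0.02 with an SE of 0.0677, adjusted p = 0.841 by limma), with overlapping groups and a sign that changed when GFP guide replicate 2 or Actg1 guide replicate 1 was left out. Rplp1 had a signal of 287, 312 and 304 in the Actg1 guide libraries, against 295, 284 and 263 in the GFP guide libraries (log2 fold change 0.12 with an SE of 0.08, adjusted p = 0.219 by limma). Rplp2 had a signal of 209, 222 and 246 in the Actg1 guide libraries, against 235, 237 and 245 in the GFP guide libraries (log2 fold change -0.09 with an SE of 0.0897, adjusted p = 0.423 by limma). Both stalk partners overlapped between groups too. Rpl5 and Rpl11 form, with the 5S RNA, a particle that restrains Mdm2. Rpl5 had a signal of 184, 188 and 212 in the Actg1 guide libraries, against 179, 171 and 199 in the GFP guide libraries (log2 fold change 0.06 with an SE of 0.0984, adjusted p = 0.674 by limma), and Rpl11 had a signal of 186, 208 and 190 in the Actg1 guide libraries, against 198, 203 and 204 in the GFP guide libraries (log2 fold change -0.06 with an SE of 0.0944, adjusted p = 0.668 by limma), again with overlap. Of proteins conserved in all kingdoms, 3 of 13 promoters rose and 1 fell in the large subunit (30.8% called, median log2 fold change 0.06). In the small subunit 2 of 12 rose and 1 fell (25% called, median log2 fold change 0.0025). The 12 include Rpsa, which is not a member because the name pattern misses it. Of 13 promoters of genes mutated in Diamond-Blackfan anaemia, Rps29 and Rpl27 rose and Rpl31 fell (23.1% called). These lists are incomplete here: 13 of 19 Diamond-Blackfan genes had a promoter region. So did 13 of 18 conserved genes of the large subunit and 12 of 15 of the small subunit. Over coding promoters 31.2% were called, with 12.9% higher and 18.3% lower, and nothing particular to a role is read from these few promoters, the 3 of the stalk included.

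Of the 6 pairs of like proteins considered, Rpl22 and Rpl22l1 and Rpl7 and Rpl7l1 had both promoters among the regions. Rpl22 itself had a signal of 341, 273 and 317 in the Actg1 guide libraries, against 331, 353 and 356 in the GFP guide libraries (log2 fold change -0.17 with an SE of 0.0809, adjusted p = 0.0797 by limma), lower like Rpl22l1 but not called, with overlapping groups. Rpl7 had a signal of 582, 556 and 627 in the Actg1 guide libraries, against 582, 592 and 645 in the GFP guide libraries (log2 fold change -0.07 with an SE of 0.0604, adjusted p = 0.402 by limma), while Rpl7l1 rose. The difference between partners was not tested. Rps27l, a relative of Rps27 that responds to p53 in human cells, had a signal of 429, 380 and 436 in the Actg1 guide libraries, against 398, 437 and 382 in the GFP guide libraries (log2 fold change 0.05 with an SE of 0.0713, adjusted p = 0.588 by limma), with overlap. Rpl39, whose relative Rpl39l had no region, had a signal of 261, 260 and 264 in the Actg1 guide libraries, against 274, 285 and 302 in the GFP guide libraries (log2 fold change -0.15 with an SE of 0.081, adjusted p = 0.135 by limma), and Rpl10, whose relative Rpl10l had none, had a signal of 587, 556 and 557 in the Actg1 guide libraries, against 580, 584 and 576 in the GFP guide libraries (log2 fold change -0.03 with an SE of 0.0583, adjusted p = 0.702 by limma). The groups were apart at Rpl39 and overlapped at Rpl10, whose sign turned after cyclic loess scaling.

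Rises and falls were unevenly spread over the chromosomes. Over coding promoters, the median log2 fold change ran from -0.18 on X (10 higher and 128 lower of 318) to 0.09 on chromosome 11 (205 higher and 61 lower of 837), the chromosome of Actg1. Over all tested regions these medians were -0.11 and 0.05. Of the 7 ribosomal protein promoters on chromosome 11, 6 had positive log2 fold changes and 2 were called higher (Rpl23 and Rpl27), with a median of 0.17. Of the coding promoters of chromosome 11, 560 of 837 were positive. All 3 members on chromosome 17 were positive, where 291 of 476 coding promoters were. All 3 on chromosome 3 were called lower (Rpl22l1, Rpl34 and Rps3a), where 129 of 503 coding promoters were. All 4 on X were negative, where 71 of 318 coding promoters were positive. Members went mostly against a negative coding median on chromosomes 8 (2 of 2 positive), 9 (3 of 4), 10 (3 of 4) and 13 (1 of 1). Of the 64 regions, 44 (68.8%) had the sign of their chromosome's coding median, against 5949 of 9954 coding promoters (59.8%). The 11 that fell included 10 on chromosomes with a negative coding median (90.9%, against 85.1% of the coding promoters that fell), and the 7 that rose included 5 on chromosomes with a positive one (71.4%, against 43.8%). Chromosome 7 counts as negative in these shares at a coding median of only -0.00096, with 367 of 739 coding promoters positive. It holds 14 members, 4 of them positive and 3 called lower. The shares thus rest in part on a median too small to give a firm sign, and nothing is read from them. With each sample centred on the median of each chromosome, an alternative chosen after seeing the data, 4 rose and 10 fell (21.9%). Of coding promoters, 1003 then rose and 1844 fell (28.6%). The calls of Rpl27, Rpl7l1, Rpl8 and Rpl27a ended (limma adjusted p = 0.0845, 0.17, 0.115 and 0.0544). What sets the chromosomes apart was not tested. On chromosome 7, which holds 14 of the regions, Rps13, Rpl28 and Rpl27a fell and 1 member rose. Of the 739 coding promoters of chromosome 7, 99 rose and 106 fell.

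**Figure D5:**
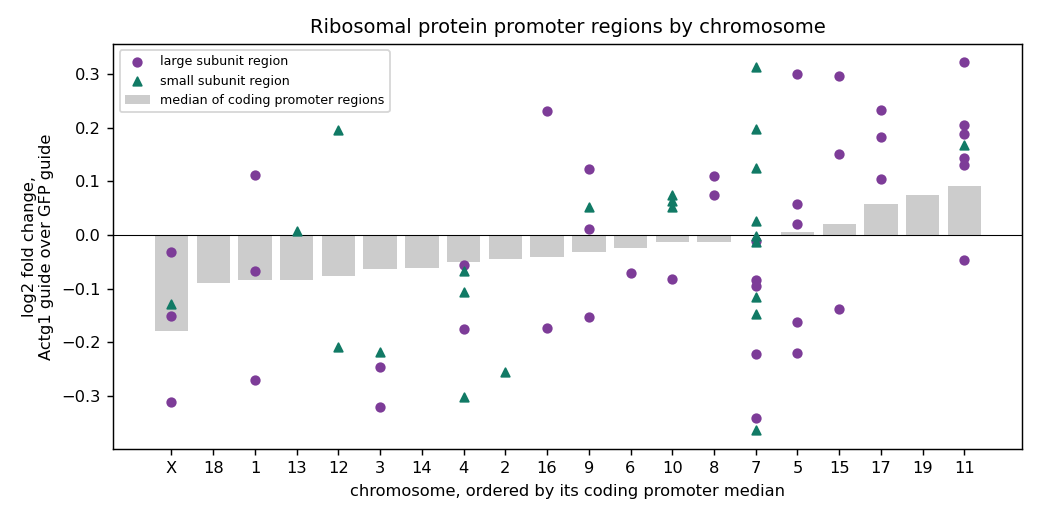
Log2 fold change, Actg1 guide over GFP guide (vertical axis), of each large subunit (circles) and small subunit (triangles) promoter region by chromosome, with grey bars for the median of all coding promoter regions of the chromosome. Chromosomes are ordered by that median, from -0.18 on X to 0.09 on chromosome 11, and the members of chromosome 11 lie mostly above 0 while those of X lie below 0.

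The 64 regions do not reach every ribosomal protein gene. RefSeq lists 83 coding genes that fit the name pattern, of which 19 had no member region. For 11 of the 19, a region that the table names for a neighbour, or places farther from its own start, lay within 1000 bp of the RefSeq start, and 4 of these rose and 1 fell (45.5% called, against 31.2% of coding promoters, with 12.9% higher and 18.3% lower). The promoter shared by Rpl4, a protein of the exit tunnel, and Zwilch, a kinetochore gene, had 271, 254 and 200 with the Actg1 guide, against 179, 184 and 164 with the GFP guide (log2 fold change 0.47, SE 0.102, adjusted p = 0.000221 by limma), a larger change than at any of the 64 regions and without overlap. Rps18, shared with Vps52, rose, having 479, 431 and 440 with the Actg1 guide, against 370, 424 and 397 with the GFP guide (log2 fold change 0.18, SE 0.0674, adjusted p = 0.0298 by limma). Rps2, which had 621, 592 and 623 with the Actg1 guide, against 584, 579 and 513 with the GFP guide (log2 fold change 0.16, SE 0.0602, adjusted p = 0.0261 by limma), and Rpl7a, shared with Med22 (log2 fold change 0.20, adjusted p = 0.0308 by limma), were the other rises. Rpl7a overlapped between groups. The fall was at Rpl15, shared with Nkiras1 (log2 fold change -0.18, adjusted p = 0.0143 by limma), where the groups overlapped as well. Of the 11 regions, 9 are named for a neighbour, and these cannot be assigned to either gene alone. The same holds for 6 of the 64 members (9.38%, against 19.8% of coding promoters), which have the start of another gene within 1000 bp of their centre. They include Rps13 (with Gm10589), Rpl22l1 (with Gm32950) and Rpl9 (with Lias), which were called, and Rpl22, Rpl18 and Rpl35a, which were not. Of the ribosomal protein genes whose names the pattern misses, Rpsa and Fau had promoter regions that did not pass (log2 fold changes -0.05 and 0.15, adjusted p = 0.507 and 0.16 by limma).

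Promoters of genes that build and use ribosomes changed in both directions. Of 57 promoter regions of mitochondrial ribosomal proteins, which serve the separate ribosome of mitochondria, 12 rose and 7 fell (33.3%, median log2 fold change 0.01). By region, the largest rises were at 1 of 2 Mrpl20 regions and at Mrpl55, and the largest falls at Mrps15 and Mrps36. Mrpl55 had 253, 264 and 266 with the Actg1 guide, against 171, 186 and 173 with the GFP guide, without overlap (log2 fold change 0.57, adjusted p = 1.44e-06 by limma). That Mrpl20 region, centred 45 bp from the TSS, was weak, with 42, 23 and 22 with the Actg1 guide, against 16, 17 and 16 with the GFP guide (log2 fold change 0.74, adjusted p = 0.032 by limma), and rose without overlap. The stronger Mrpl20 region, centred 728 bp from the TSS, had 169, 162 and 153 with the Actg1 guide, against 154, 156 and 182 with the GFP guide (log2 fold change -0.06, adjusted p = 0.688 by limma), with overlap. Mrps15 (log2 fold change -0.30, adjusted p = 0.0107 by limma) overlapped between groups and Mrps36 (log2 fold change -0.28, adjusted p = 0.00031 by limma) did not.

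Of 38 regions of ribosome biogenesis factors, 8 rose and 4 fell (31.6%, median log2 fold change 0.06). Imp3, a component of the small subunit processome, had 286, 293 and 291 with the Actg1 guide, against 222, 213 and 189 with the GFP guide (log2 fold change 0.51, adjusted p = 4.66e-06 by limma). A weak region centred 829 bp from the TSS of Rcl1, another factor of small subunit assembly, had 43, 43 and 49 with the Actg1 guide, against 29, 32 and 27 with the GFP guide (log2 fold change 0.63, adjusted p = 0.0119 by limma). The stronger region, centred nearer to the same TSS, had 674, 629 and 695 with the Actg1 guide, against 728, 692 and 747 with the GFP guide (log2 fold change -0.13, adjusted p = 0.0554 by limma), and did not pass. The Imp3 region and the weak Rcl1 region rose without overlap, while Gar1, a core protein of H/ACA particles (log2 fold change -0.27, adjusted p = 0.00132 by limma), and Rpf2, which brings in the 5S particle (log2 fold change -0.31, adjusted p = 0.0376 by limma), fell without overlap.

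Of 34 regions of translation factors, 5 rose and 6 fell (32.4%, median log2 fold change 0.03). The X-linked initiation factor gene Eif1ax had 256, 226 and 284 with the Actg1 guide, against 317, 331 and 355 with the GFP guide, without overlap (log2 fold change -0.41, adjusted p = 0.00013 by limma), and Etf1, the release factor that reads stop codons, also fell (log2 fold change -0.22, adjusted p = 0.00203 by limma). Eif3d (log2 fold change 0.35, adjusted p = 0.000554 by limma) and Eif3g (log2 fold change 0.30, adjusted p = 0.0237 by limma), both of the eIF3 complex, rose. Of 12 regions of RNA polymerase I and its factors, which make the precursor of most rRNA, 2 rose and 2 fell (33.3%, median log2 fold change -0.0076). Ubtf, the upstream binding factor, had 175, 160 and 167 with the Actg1 guide, against 120, 138 and 122 with the GFP guide, without overlap (log2 fold change 0.41, adjusted p = 0.00173 by limma), and Polr1c, a subunit shared with polymerase III, rose too (log2 fold change 0.27, adjusted p = 0.00309 by limma). Taf1b, of the promoter selectivity factor (log2 fold change -0.44, adjusted p = 0.00267 by limma), and Rrn3, which joins that factor to the polymerase (log2 fold change -0.19, adjusted p = 0.0215 by limma), fell. These total shares lay near the 31.2% of coding promoters, of which 12.9% were higher and 18.3% lower. By direction, rises outnumbered falls among mitochondrial ribosomal proteins (12 and 7) and ribosome biogenesis factors (8 and 4), unlike over coding promoters. The balance over coding promoters changed with the scaling, and this difference was not tested.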

How the data were processed

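Accessibility was profiled with Tn5 in 6 paired-end libraries, 3 with the Actg1 guide and 3 with the GFP guide, grouped by the treatment label. The submitters' processing notes name the build mm10 and, without roles, DESeq, DESeq2 1.36.0, featureCounts, Picard 3.0.0, STAR 2.7.10a and Trimmomatic 0.39. Which peak caller and normalization were used, and whether Tn5 offsets were corrected, is not stated there. The deposited value of each region and library is a score that, from its values, is a normalized read count rounded to whole numbers, which coarsens low regions most. The authors also deposited the fraction of each region inside the gene body and the unsigned distance to the TSS, and name at most 1 gene for a region.

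Signal was tested as log2(signal + 1), on which scale changes of low regions are understated, with a mean-variance trend in limma 3.58.1 (R 4.3.3), over 61327 regions that reached 10 in at least 3 libraries; 2103 others were left out. P-values were adjusted by Benjamini-Hochberg over all tested regions, with calls at an adjusted p below 0.05. The planned count-based test was not used because the values are not raw counts. There was no covariate. The procedure was tested on simulated libraries that varied by sampling noise only. Apart from GFP guide replicates 1 and 2, real libraries within a group varied more (chi-square per region 1.03 to 1.12). The simulation therefore does not show how calls behave at the real spread. Reads were estimated from the spacing of small values and are approximate. The share of values that fit more than 1 read count was 38.7% in Actg1 guide replicate 1 and 36.7% in GFP guide replicate 1. It was 7.51% in GFP guide replicate 3 and 0% in the other libraries. The chi-square that led to averaging GFP guide replicates 1 and 2 rests on these estimates. Counts, sums and figures were made in Python 3.11.15.

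The members, gene lists and tests were chosen with earlier results of these data known. By the naming rule, library values were given for called members, the extremes of signal and of change, the stalk, the 5S particle and pairs of like proteins, and the largest changes each way of other lists. Rps7, Rpl41, members named by signal per kb and the promoters named for neighbours were chosen after their values were seen. Alternatives covered scaling, pseudocount, filter, trend, estimated reads, averaging, left-out libraries, the distance window and the gene set. Sequences came from RefSeq tables of GRCm38.p6. A few genes are counted but not reported here by name.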

Additional observations from a re-analysis of the deposited data

How the results depend on the processing

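The 7 rises and 11 falls held under other pseudocounts and without the filter. Without the trend, 0 rose and 1 fell (large subunit 0 and 0, small subunit 0 and 1). With limma-voom on estimated reads, 8 large subunit promoters rose. With chromosomes centred, an alternative chosen after seeing the data, 4 members rose, 2 of them of the large subunit, and with RefSeq start regions added, also chosen then, 11 rose. Cyclic loess scaling gave medians of 0.017 for all members, 0.0079 for the large and 0.018 for the small subunit, and the median ratio 0.020 for the small subunit. The cause was not tested. All-region medians moved by -0.03 and 0.02 under these scalings.

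Leaving out 1 library in turn gave 5 to 9 rises and 8 to 11 falls (large subunit 3 to 7 and 4 to 7, small subunit falls 3 to 4). Of the members 20.3% to 26.6% were called, against 24.4% to 30.2% of coding promoters. These counts leave aside the fit without GFP guide replicate 3, which has 1 GFP guide sample. The small subunit median ran from -0.033 to 0.021. The difference in the log2 ratio of subunit sums, 0.0052, ran from -0.012 to 0.023. Signs of small differences turned: ranges were -0.0048 to 0.15 for Rpl5, -0.11 to 0.0015 for Rpl7, -0.0060 to 0.047 for Rplp0, -0.0084 to 0.080 for Rps19, -0.011 to 0.11 for Rps27l and -0.097 to 0.039 for Rps3. Rps3 was 0.017 after cyclic loess, 0.020 after the median ratio and 0.023 with chromosomes centred, and Rpl10 was 0.0079 after cyclic loess and 0.045 with chromosomes centred.

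Same-numbered libraries of the groups deviated together at correlations of 0.025, 0.014 and 0.016, all under 0.1. Each correlated best with its own number, a hint from the data and not the design. Correlations this small cannot decide whether same-numbered libraries shared more than a number. With the replicate block and 6 separate libraries, 8 rose and 13 fell (32.8%, against 37.7% of coding promoters). With 6 separate libraries alone 17 were called (26.6%, against 36.0% of coding promoters). Sums of subunits were not recomputed under cyclic loess scaling. The lowest estimate for a member in a library was 88 reads, and whether depth limits the calls was not tested.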

Other observations

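Regions named for ribosomal protein genes but centred more than 1000 bp from the TSS numbered 13, and 5 of them were called (38.5%, near the 41.3% of all tested regions). The largest difference was at a region centred 1340 bp before the start of Rps14, a small subunit protein whose human gene lies in the deleted interval of the 5q- syndrome. It had 115, 108 and 123 with the Actg1 guide, against 190, 198 and 227 with the GFP guide (log2 fold change -0.86 with an SE of 0.11, adjusted p = 3.01e-08 by limma), without overlap. This is a larger change than at any of the 64 promoter regions. A region 4080 bp after the start of Rpl13 had 138, 132 and 111 with the Actg1 guide, against 93, 87 and 87 with the GFP guide (log2 fold change 0.51, adjusted p = 0.00107 by limma), while the promoter region of Rpl13 had a log2 fold change of 0.11 (adjusted p = 0.402 by limma). The difference between those regions was not tested. The region of Rpl17, 2018 bp after its start, had 185, 184 and 164 with the Actg1 guide, against 218, 223 and 216 with the GFP guide (log2 fold change -0.30, adjusted p = 0.0111 by limma). A region 5043 bp after the start of Rpl26 rose (log2 fold change 0.34, adjusted p = 0.0447 by limma), and the last of the 5 is the Rps2 region already described.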
